A study of Mus musculus with 7 samples.

Results

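Liver-enriched transcription factors are the DNA-binding proteins that, in combination, set and maintain the gene programme of the hepatocyte. The 8 factors described here were picked by name from the gene symbols of the count table, and 8 of its 56691 genes matched. They were the FoxA factors Foxa1, Foxa2 and Foxa3, the C/EBP factors Cebpa, Cebpb and Cebpd, the cut-homeobox factor Onecut1 and the homeobox factor Prox1. Liver RNA of male C57BL/6J mice had been sequenced, and its counts were used here to see how these factors responded to endotoxin. Control mice (n = 4 libraries) were compared with mice given lipopolysaccharide (LPS), a component of the outer membrane of Gram-negative bacteria, by intraperitoneal injection at 10 mg/kg (n = 3 libraries). The animals were 8 weeks old at purchase, were housed for 2 weeks, and were killed 24 h after LPS. The study planned 6 mice per group, and 4 and 3 of them had libraries here. The labels do not state what the control mice received.

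FoxA proteins open compacted chromatin so that other factors can bind, and C/EBPα works with them at genes of hepatocyte metabolism. Onecut1 (also called HNF6) and Prox1 act in liver development and persist in the adult hepatocyte. C/EBPβ and C/EBPδ belong to the same bZIP family as C/EBPα and recognise the same DNA element. They are known as the C/EBP factors of the acute phase response, in which cytokines such as IL-6 and IL-1 turn the liver to the production of plasma proteins for defence.

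The libraries held 14991022, 15096573, 15721944 and 18584140 counts in control replicates 1 to 4. LPS replicates 1 to 3 held 20500391, 17095607 and 17821331 counts. Levels are given in CPM, counts relative to the library size after scaling with edgeR's TMM factors, and 3 counts, the smallest amount taken as detected, correspond to between 0.138 and 0.212 CPM. These floors cover counting error only. Haptoglobin (Hp), an acute phase protein of liver, had 2669 ± 568 CPM (SD, n = 4) in control mice and 27528 ± 4302 CPM (SD, n = 3) in LPS-treated mice, so the libraries followed their labels. Albumin (Alb), the defining secreted protein of hepatocytes, had 46978 CPM in control mice and 24665 CPM after LPS. In control mice it was the most abundant of the hepatocyte markers listed, while after LPS transferrin (Trf) averaged more, with 25323 CPM.

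Some libraries stood apart. In control replicate 3, Foxa1 reached 48.2 CPM, Onecut1 25.8 CPM and Foxa2 31.3 CPM, each above every other library, while Prox1 was lowest there at 53.0 CPM. Hhex and Foxq1, a homeobox and a forkhead factor picked after their values were seen, were also highest in that mouse, with 327 and 55.5 CPM against at most 122 and 11.3 CPM in any other library. The spread between LPS replicates 2 and 3 was small: the log2 ratio of their counts had an SD of 0.10 over 1729 highly counted genes, against 0.29 to 0.58 in the other pairs of mice within a group. Over genes with 20 to 200 summed counts, their squared differences were 3.796 times what counting noise gives, the lowest of the pairs within a group (4.97 to 8.63 in the others). They were kept as separate samples as labelled, and whether they came from separate mice was not tested. Mitochondrial genes took 23.7%, 14.6%, 7.48% and 8.96% of the counts in control replicates 1 to 4, and 6.45%, 3.83% and 3.94% in LPS replicates 1 to 3. The part of this difference in the results was not tested.

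All 8 factors passed the filter on low counts and were tested among 13683 genes. A gene was called at a Benjamini-Hochberg adjusted p below 0.05 in edgeR's quasi-likelihood test. Of the 8 factors, 3 were called higher in LPS-treated mice (Cebpb, Cebpd and Foxa3), against 13.3% of all genes tested. Another 3 were called lower (Cebpa, Foxa1 and Onecut1), against 13.0% of all genes. These shares are 1825 genes higher and 1773 lower with TMM factors, and with total counts alone edgeR called 1350 higher and 2057 lower. Foxa2 and Prox1 were not called. The groups were fully separated for the same 6 factors: in 3 every LPS library lay above every control library, as for 18.1% of all genes, and in 3 every LPS library lay below, as for 17.4%. With a change of more than 2-fold also required, 1 factor was higher (Cebpd; background 7.81%) and 2 were lower (Foxa1 and Onecut1; background 7.31%). Without control replicate 3, 4 factors were called higher and 3 lower, and Foxa1 was below 2-fold. Without LPS replicate 1 only 1 factor was called lower, and without LPS replicate 2 or 3 the number was 0 by edgeR. When LPS replicates 2 and 3 were summed into 1 sample, 3 were called higher and 0 lower by edgeR, with 3 lower at an unadjusted p below 0.05. DESeq2, run on all 7 libraries, called 3 higher and 2 lower. Since the tissue is a bulk sample, fewer cells of a type and less RNA per cell cannot be told apart in any of these values.

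**Figure D1:**
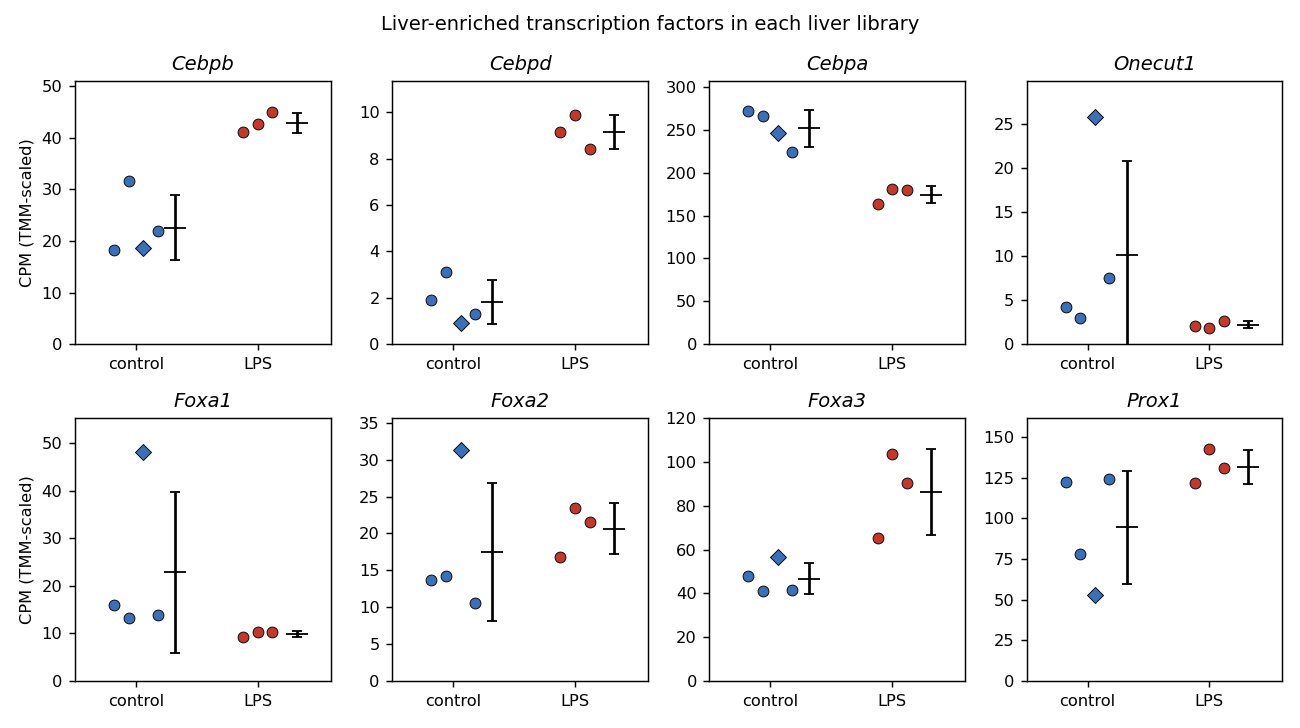
CPM of each of the 8 factors (vertical axis, linear, from 0, scaled per gene) in control mice (blue, 4 libraries) and LPS-treated mice (red, 3 libraries), with control replicate 3 as a diamond and the mean ± SD at the right of each group; the lower SD bar of Onecut1 in control mice ends at the axis. Cebpb, Cebpd and Foxa3 lay higher in every LPS library than in any control library, Cebpa, Foxa1 and Onecut1 lay lower, and Foxa2 and Prox1 overlapped.

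The acute phase factors Cebpb and Cebpd rose. Cebpb had 18.3, 31.6, 18.6 and 21.9 CPM in control replicates 1 to 4 and 41.0, 42.6 and 44.9 CPM in LPS replicates 1 to 3. Control replicate 2 was the highest of the control mice, and still below every LPS-treated mouse. The log2 fold change was 0.92 ± 0.19 (SE), with an adjusted p of 0.00299 by edgeR's quasi-likelihood test with Benjamini-Hochberg adjustment. Cebpd, the scarcer of the pair, had 1.91, 3.09, 0.917 and 1.31 CPM in control mice and 9.13, 9.86 and 8.40 CPM after LPS. Again control replicate 2 was highest among the controls, and the groups were far apart. In raw numbers these were 15 to 49 counts per control library and 135 to 198 per LPS library, so the control level of Cebpd rests on few counts. Its log2 fold change was 2.34 ± 0.36 (SE), or 5.07-fold (edgeR's quasi-likelihood test, Benjamini-Hochberg adjusted p = 3.64e-04). Both genes were called at an adjusted p below 0.05 in all 16 alternative fits, which changed the test, the scaling, the filter, the model or the libraries, though Cebpb was below 2-fold with all libraries. With control replicate 3 left out, the log2 fold changes were 0.84 for Cebpb and 2.12 for Cebpd.

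Both genes share sequence with a gene on the opposite strand, and the libraries were made strand-specific, but the strand setting of the counting is not given in the sources used here. By the GENCODE M21 gene models, exons of Tmem189 cover 312 bases, or 20.7%, of the exon bases of Cebpb. Tmem189 had 123, 83, 95 and 79 counts in control mice and 511, 308 and 311 after LPS. Exons of Spidr cover 562 bases, or 15%, of Cebpd, and Spidr had 15 to 47 counts in control mice and 44 to 101 after LPS. So the counts of these pairs are uncertain where they overlap, and the part of the overlap in the results was not tested.

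Cebpa, the C/EBP factor of the resting hepatocyte, fell. It had 271, 266, 246 and 224 CPM in control mice and 163, 181 and 179 CPM after LPS. Every LPS library lay below the lowest control library, and both groups were tight, with an SD of 8.52% of the mean in control mice and 5.55% after LPS. The log2 fold change was -0.53 ± 0.14 (SE), with an adjusted p of 0.0127 (edgeR's quasi-likelihood test, Benjamini-Hochberg adjustment). The call was lost without LPS replicate 2 or 3, where the edgeR adjusted p was 0.0545 and 0.0553 at log2 fold changes of -0.55. Over the 16 alternative fits the adjusted p of Cebpa ran from 0.00157 to 0.0635 (edgeR or DESeq2).

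The balance within the C/EBP family shifted accordingly. Counts were divided by the exon length of each gene (CPM per kb) so that levels of different genes can be compared roughly. This length took in all annotated exon bases, 1.504 kb for Cebpb and 3.746 kb for Cebpd. Which of these bases the liver transcripts held was not tested, and shares and ranks between genes depend on this choice. Of the summed CPM per kb of Cebpa, Cebpb and Cebpd, Cebpa took 86.1% ± 3.10 (SD, n = 4) in control mice and 68.1% ± 0.663 (SD, n = 3) after LPS. Cebpb took 13.5% ± 2.97 in control mice and 29.3% ± 0.750 after LPS. Cebpd stayed a small part, with 0.423% ± 0.187 in control mice and 2.51% ± 0.236 after LPS. The ranges of the groups did not overlap for any of these 3 shares, which are descriptions without a test. The sum over the 3 factors was 111 ± 10.1 CPM per kb in control mice and 97.1 ± 4.73 CPM per kb after LPS. Within a library, the ratio of Cebpb to Cebpa counts was 0.0673, 0.119, 0.0754 and 0.0978 in control mice and 0.251, 0.236 and 0.250 after LPS. The lowest LPS value was well above the highest control value, and Cebpa remained the more counted gene in every library.

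Of the other C/EBP genes, Cebpe and Cebpg were not called. Cebpg, a family member without a transactivation domain, had a log2 fold change of -0.075 ± 0.20 (SE; edgeR, Benjamini-Hochberg adjusted p = 0.822), and its value in control replicate 3, 95.8 CPM, was above all other libraries. Without that mouse its log2 fold change was 0.15. Cebpe, better known from granulocytes, had a log2 fold change of -0.87 ± 0.36 (SE; edgeR, Benjamini-Hochberg adjusted p = 0.0957). Without control replicate 1 it was called (edgeR adjusted p = 0.0432). Ddit3, the stress-induced factor CHOP that pairs with other C/EBP proteins, rose, with 7.48 ± 3.16 CPM (SD, n = 4) in control mice and 31.7 ± 4.51 CPM (SD, n = 3) after LPS. Its log2 fold change was 2.09 ± 0.27 (SE; edgeR, Benjamini-Hochberg adjusted p = 9.08e-05). In the list of 14 C/EBP genes and partners, 4 were higher and 1 was lower (Cebpa), against 13.3% and 13.0% of all genes tested. The higher ones were Cebpb, Cebpd, Ddit3 and Batf, the last averaging 1.76 CPM after LPS. The other 9, among them Trib1, Trib2, Trib3 and Atf4, were not called, though Trib1 was called without LPS replicate 1 (edgeR adjusted p = 0.0226).

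**Figure D2:**
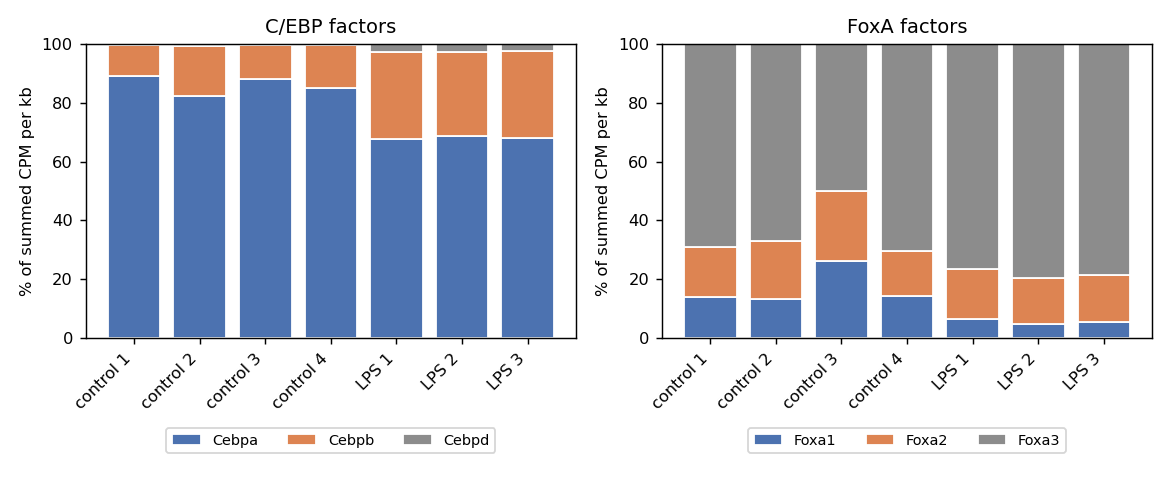
Share of each factor (vertical axis, percent) in the summed CPM per kb of the C/EBP factors Cebpa, Cebpb and Cebpd (left) and of the FoxA factors (right), 1 bar per library. Cebpb took 28.5% to 29.8% in the LPS libraries and 10.5% to 17.1% in the control libraries, and Foxa3 took 76.5% to 79.7% after LPS against 50.1% to 70.3% in control mice, lowest in control replicate 3.

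The FoxA factors did not move as 1 group. Foxa3 had 47.8, 41.2, 56.6 and 41.5 CPM in control mice and 65.2, 104 and 90.4 CPM after LPS. The groups were apart, and LPS replicate 1 was the lowest of its group. The log2 fold change of Foxa3 was 0.89 ± 0.18 (SE), with an adjusted p of 0.00285 by edgeR's quasi-likelihood test with Benjamini-Hochberg adjustment. It was below 2-fold with all libraries, and was called at an adjusted p below 0.05 in all 16 alternative fits, at log2 fold changes from 0.74 to 1.06. Foxa1 went the other way, with 15.99, 13.3, 48.2 and 13.8 CPM in control mice and 9.17, 10.2 and 10.3 CPM after LPS. Every LPS value was below every control value, but control replicate 3 was far above the other control mice. With all libraries the log2 fold change of Foxa1 was -1.20 ± 0.40 (SE; edgeR, Benjamini-Hochberg adjusted p = 0.0440). Without control replicate 3 it was -0.54 ± 0.18 (SE; edgeR, Benjamini-Hochberg adjusted p = 0.0423). The fall was smaller without this mouse, and the call was kept. The call of Foxa1 was lost without LPS replicate 1, 2 or 3 (edgeR adjusted p 0.112, 0.111 and 0.112) and with DESeq2 (adjusted p = 0.111). Over all alternatives the adjusted p of Foxa1 ran from 9.95e-08 to 0.113. The lowest came from edgeR with no filter on low counts, where the SE was 0.20, and the next lowest was 0.0235 (edgeR).

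Foxa2, the FoxA factor best known for fasting and bile acid genes, had 13.7, 14.2, 31.3 and 10.5 CPM in control mice and 16.8, 23.5 and 21.5 CPM after LPS. The groups overlapped through control replicate 3 alone, which was above all LPS libraries. With that mouse the log2 fold change was 0.24 ± 0.31 (SE; edgeR, Benjamini-Hochberg adjusted p = 0.619). Without it every LPS library was above every control library, and the log2 fold change was 0.68 ± 0.19 (SE; edgeR, Benjamini-Hochberg adjusted p = 0.0191). No other alternative called Foxa2, and the adjusted p ran up to 0.920 over the alternatives. Within a library, where a mouse with high FoxA levels is set against itself, the ratio of Foxa2 to Foxa1 counts was 0.858, 1.07, 0.649 and 0.765 in control mice and 1.83, 2.30 and 2.08 after LPS. Control replicate 3 was lowest in this ratio but near the other control mice, and the groups were apart. The ratio of Foxa3 to Foxa1 counts was 2.99, 3.11, 1.17 and 3.01 in control mice and 7.11, 10.1 and 8.75 after LPS.

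Of the summed CPM per kb of the 3 FoxA factors, Foxa1 took 16.9% ± 6.14 (SD, n = 4) in control mice and 5.63% ± 0.895 (SD, n = 3) after LPS. Foxa3 took 64.1% ± 9.41 in control mice and 78.2% ± 1.63 after LPS, and Foxa2 took 19.0% ± 3.68 and 16.2% ± 0.730. The share of Foxa2 overlapped between groups, and the other shares did not. Among all 45 forkhead genes of the count table, 17 were tested, 2 were higher and 2 lower by edgeR, against 13.3% and 13.0% of all genes tested. Without LPS replicate 1, 2 or 3, 1 was lower. Besides Foxa3 and Foxa1, these were Foxo1, the insulin-regulated forkhead factor, with a log2 fold change of 0.99 ± 0.20 (SE; edgeR, Benjamini-Hochberg adjusted p = 0.00286), and Foxn3, with -1.03 ± 0.15 (SE; edgeR, Benjamini-Hochberg adjusted p = 2.17e-04).

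Onecut1, an activator of hepatocyte and bile duct genes, had 4.25, 3.03, 25.8 and 7.50 CPM in control mice and 2.12, 1.87 and 2.68 CPM after LPS. The LPS values were below all control values, and control replicate 3 was again the highest. The log2 fold change was -2.19 ± 0.63 (SE; edgeR, Benjamini-Hochberg adjusted p = 0.0226). Without control replicate 3 it was -1.16 ± 0.39 (SE; edgeR, Benjamini-Hochberg adjusted p = 0.0426). It was not called without LPS replicate 1, 2 or 3 (edgeR adjusted p 0.0655, 0.0819 and 0.0604). Over the alternatives the adjusted p of Onecut1 ran from 8.48e-12 to 0.0844. The lowest came from edgeR with no filter on low counts, where the SE was 0.30, and the next lowest was 0.0105 (edgeR). LPS libraries held 29 to 46 counts of this gene, so the level after LPS is known only roughly. By the same gene models, Gm20649 covers 52.8% of the exon bases of Onecut1 on the same strand. It had 0 counts in all 7 libraries, and how reads on both genes were counted is not given in the sources used here.

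Prox1, a repressor and activator of hepatocyte genes that also marks lymphatic endothelium, had 123, 77.8, 53.0 and 124 CPM in control mice and 122, 143 and 131 CPM after LPS. Control replicates 1 and 4 lay within the LPS range, while control replicates 2 and 3 were below it. The log2 fold change was 0.48 ± 0.25 (SE), with an adjusted p of 0.179 (edgeR's quasi-likelihood test, Benjamini-Hochberg adjustment) and a 95% interval from -0.057 to 1.02. So neither no change nor a doubling was outside what these libraries allow. Prox1 was called with no filter on low counts (log2 fold change 0.49, edgeR adjusted p = 0.0274), and without control replicate 3 its log2 fold change was 0.28 (edgeR adjusted p = 0.285). Of 6 lymphatic endothelial markers, 4 were tested, with Lyve1 higher and Reln lower, and the list summed to 57.8, 58.4, 43.8 and 60.0 CPM in control mice and 52.7, 33.4 and 33.2 CPM after LPS. Reln was the most abundant of them in control mice and Lyve1 after LPS, and Ccl21a had at most 5 counts in any library. How much of the RNA of these markers came from lymphatic endothelium was not tested. Nor was the part of such cells in the values of Prox1.

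**Figure D3:**
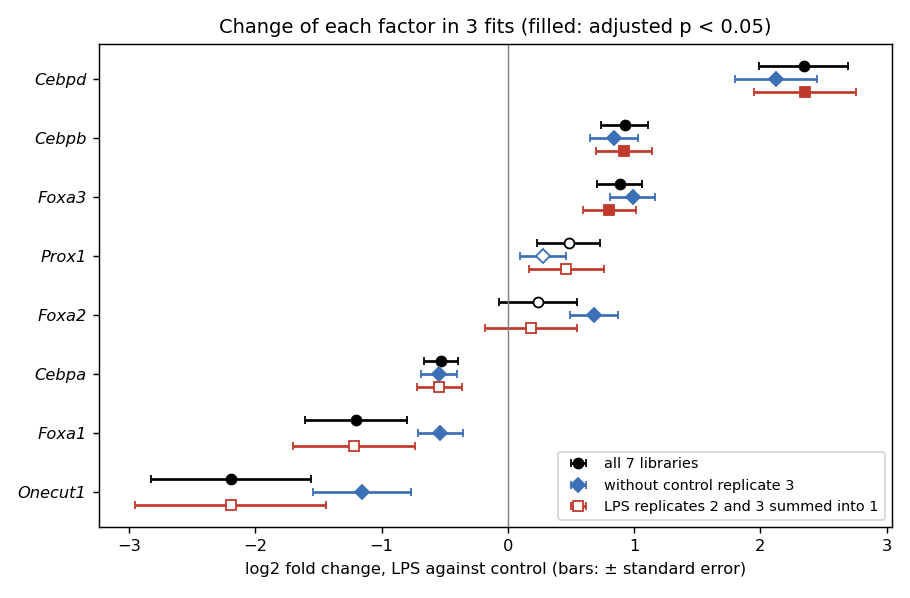
Log2 fold change of each factor, LPS against control, with ± SE bars (horizontal axis), for all 7 libraries (black circles), without control replicate 3 (blue diamonds) and with LPS replicates 2 and 3 summed into 1 sample (red squares), where filled symbols had an adjusted p below 0.05 in edgeR's quasi-likelihood test. Cebpd, Cebpb and Foxa3 were filled in all 3 rows, Cebpa, Foxa1 and Onecut1 were open only in the summed fit, and Foxa2 was filled only without control replicate 3.

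Per kb of exon, Cebpa had the highest level of the 8 factors in both groups, with 95.6 ± 8.14 CPM per kb (SD, n = 4) in control mice and 66.2 ± 3.67 (SD, n = 3) after LPS. Foxa3 came next, with 23.0 ± 3.56 and 42.4 ± 9.63 CPM per kb, followed by Cebpb with 15.01 ± 4.13 and 28.5 ± 1.29. Prox1 had 11.2 ± 4.17 and 15.7 ± 1.26 CPM per kb, Foxa2 had 7.36 ± 3.95 and 8.70 ± 1.45, and Foxa1 had 6.86 ± 5.10 and 2.98 ± 0.194. By these lengths the order changed only at the bottom. In control mice Onecut1 (2.47 ± 2.58 CPM per kb) was above Cebpd (0.482 ± 0.254), and after LPS Cebpd (2.44 ± 0.194) was above Onecut1 (0.540 ± 0.101). Of the 7 pairs of neighbours in the order, 6 overlapped over the control libraries, and only Cebpa stood clear of the next factor. Without control replicate 3, 4 of the 7 pairs overlapped. Over the 3 LPS libraries 0 of the 7 pairs overlapped.

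In a list of 30 further factors of the hepatocyte network, 28 were tested, 5 were higher and 5 lower by edgeR, against 13.3% and 13.0% of all genes tested. The higher ones were Gata6, Nfil3, Creb3l3, Hnf4a and Nfia, with log2 fold changes between 0.72 and 1.19. Hnf4a, the nuclear receptor at the centre of the network, had 258, 256, 376 and 347 CPM in control mice and 422, 578 and 552 CPM after LPS. It was higher in every LPS library, with a log2 fold change of 0.74 ± 0.18 (SE; edgeR, Benjamini-Hochberg adjusted p = 0.00960), but not called without LPS replicate 2 or 3 (edgeR adjusted p 0.0581 and 0.0506). Creb3l3, a liver factor activated by cleavage in the secretory pathway, had a log2 fold change of 0.75 and was not called without LPS replicate 3 (edgeR adjusted p = 0.0549). The lower factors were Nfix, Zbtb20, Nr1i3, Nfib and Nr0b2, with log2 fold changes from -0.99 to -0.77. Nr1i3, the xenobiotic receptor CAR, had a log2 fold change of -0.85 ± 0.14 (SE; edgeR, Benjamini-Hochberg adjusted p = 8.07e-04). Nr0b2 (SHP) was not called without control replicate 2 or LPS replicate 1 or 3 (edgeR adjusted p 0.0579, 0.0708 and 0.0840). With LPS replicates 2 and 3 summed into 1 sample, 3 factors of the list were higher and 4 lower. Leaving out LPS replicate 3 also left 3 higher and 4 lower, and without control replicate 3 there were 6 of each.

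Genes of the signals that act on Cebpb and Cebpd were also followed. Of 21 such genes, 18 were tested, 8 were higher and 2 lower by edgeR, against 13.3% and 13.0% of all genes tested. With no filter on low counts all 21 were tested, and 9 were higher and 2 lower. The cytokine gene Il1b had a log2 fold change of 3.21 ± 0.30, Socs3, a feedback inhibitor of STAT3 signalling, 2.90 ± 0.32, and the IL-1 receptor gene Il1r1 2.30 ± 0.18 (each ± SE; edgeR, Benjamini-Hochberg adjusted p = 5.48e-06, 2.61e-05 and 1.40e-06). Lifr, the receptor of leukemia inhibitory factor, fell by 3.13 on the log2 scale, and Il1rap, the accessory protein of the IL-1 receptor, fell by 1.62. Il6, Osm and Lif had too few counts to be tested, with 0.570, 0.520 and 0.302 CPM on average after LPS.

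Genes known as targets of the acute phase C/EBP factors rose. Of 22 listed, 21 were higher and 0 lower by edgeR, against 13.3% and 13.0% of all genes tested. DESeq2 and an unadjusted p below 0.05 also gave 0 lower. The median log2 fold change was 3.23. Lcn2, Saa3 and Saa2, all secreted acute phase proteins, had the highest log2 fold changes, 9.73 ± 0.35, 9.64 ± 0.28 and 9.15 ± 0.38 (± SE). Saa1 had 87.3 ± 40.4 CPM (SD, n = 4) in control mice and 22105 ± 4939 CPM (SD, n = 3) after LPS. The exception was Hamp, the iron hormone hepcidin, with 610 ± 147 CPM in control mice and 543 ± 73.4 CPM after LPS (edgeR, Benjamini-Hochberg adjusted p = 0.572). The median of the list was above the log2 fold change of Cebpb and that of Cebpd.

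Targets of the identity factors went mostly the other way. Of 30 listed symbols, 28 were found and tested, with a median log2 fold change of -0.74. Of these, 15 were lower and 4 higher by edgeR, against 13.0% and 13.3% of all genes tested. The 2 symbols not found were G6pc1, a newer symbol of G6pc, which is among the 28, and Tf, which the file names Trf. Trf, the iron carrier transferrin, is not in these counts and had a log2 fold change of 1.03 (edgeR, Benjamini-Hochberg adjusted p = 0.00597). Serpina6, the plasma carrier of corticosteroids, fell by 5.09, Slc2a2, the hepatocyte glucose transporter, by 2.84, and G6pc, the last enzyme of glucose release, by 2.44 on the log2 scale. The 4 higher genes were Ppargc1a, Tat, Tdo2 and Pck1, genes of the fasting response or of amino acid breakdown, with log2 fold changes of 2.08, 1.40, 1.30 and 1.12. Without control replicate 3, 7 genes of the list were higher and 15 lower.

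Other cells of the liver were followed with marker lists, since Cebpb and Cebpd are also expressed in myeloid cells. For all marker lists of cell types, the shares over all genes tested were 13.3% higher and 13.0% lower. Of 12 neutrophil markers, 8 were tested and 8 were higher. They summed to 5.24, 4.54, 2.02 and 2.95 CPM in control mice and 217, 160 and 160 CPM after LPS. Csf3r was the most abundant in control mice and S100a9 after LPS. Of the 4 with too few counts to be tested, Ly6g had 0 counts in every control library and 7, 0 and 1 counts after LPS, and Mpo had 0, 1 and 0 counts after LPS. Of 12 macrophage markers, 12 were tested, 6 were higher and 1, Clec4f, was lower. Their sum was 180, 244, 233 and 149 CPM in control mice and 823, 229 and 240 CPM after LPS. Clec4f was the most abundant in every control library, Marco in LPS replicate 1 and Lyz2 in LPS replicates 2 and 3. The sum in LPS replicate 1 was far above the others, and without that library 4 macrophage markers were higher and 4 lower. The part of neutrophil and macrophage RNA in the values of Cebpb and Cebpd was not tested.

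Foxa1, Foxa2 and Onecut1 are also expressed in bile duct cells. Of 12 cholangiocyte markers, 10 were tested, 1 (Sox9) was higher and 0 were lower by edgeR, with 0 lower by DESeq2 and 3 lower at an unadjusted p below 0.05. Without control replicate 3, 1 was lower, and without control replicate 1, 2 were higher. They summed to 291, 132, 91.4 and 141 CPM in control mice, where control replicate 3 was lowest, and to 153, 184 and 178 CPM after LPS, with Spp1 the most abundant. Of 15 hepatocyte markers, 14, all but transferrin, were found under the listed symbols and tested, 2 (Tat and Hnf4a) were higher and 6 were lower, among them Alb with a log2 fold change of -0.93. Without LPS replicate 2 or 3, 1 was higher and 4 were lower, and neither Hnf4a (edgeR adjusted p = 0.0581 and 0.0506) nor Alb (0.0618 and 0.0641) was called. These 14 markers summed to 73651, 75950, 101041 and 86530 CPM in control mice and 49823, 54611 and 54588 CPM after LPS, with control replicate 3 the highest. Transferrin (Trf) was left out of these counts and sums. It had 8836, 11830, 15275 and 13827 CPM in control mice and 20908, 27336 and 27724 CPM after LPS. Its log2 fold change was 1.03 (edgeR, Benjamini-Hochberg adjusted p = 0.00597). The part of hepatocyte RNA in the falls of Cebpa, Foxa1 and Onecut1 was not tested.

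Among the factors, the levels of Foxa1 and Onecut1 went together over the 7 libraries (Pearson r = 0.95), as did those of Cebpb and Cebpd (r = 0.95), while Foxa1 and Prox1 went in opposite directions (r = -0.85). These are descriptions over 7 libraries that share 2 treatments. Control replicate 3 had the highest levels of Foxa1 and Onecut1 and the lowest of Prox1. The correlations were not computed without that mouse. Among 7072 genes with at least 10 CPM on average, the 3 most like each factor were taken by Pearson r over the same libraries. For Cebpb they were Gm15500, Acp2 and Nsa2 (r = 0.979 to 0.997), and for Cebpd Gm11843, Trabd and Cep85 (r = 0.991 to 0.995). For Cebpa they were Apoe, Prdx4 and Hagh (r = 0.996 to 0.998), and for Foxa3 Tmem248, Cisd2 and Snx7 (r = 0.986 to 0.993). For Foxa1 they were Rbm47, Kdm5b and Rrbp1 (r = 0.97 to 0.98), and for Onecut1 Hyal1, Mfhas1 and Tmem59 (r = 0.979 to 0.985). Foxa2 was most like Crem, Zfp809 and Rnd3 (r = 0.92 to 0.93), and Prox1 like R3hdm1, Miga2 and Baiap2 (r = 0.93 to 0.97).

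The promoters of the factors were searched for short DNA elements, since several factors moved together. RefSeq promoters (GRCm38.p6, 250 bases before the gene start) were matched for 7 of the 8 factors, all but Cebpd. Counts on both strands are given for 4 of the patterns searched: TTNNGCAA for C/EBP, GGGA and CC with any 4 bases between them for NF-kappa B, TGTTTAC for FoxA and TGACG, the core of the cAMP response element (CRE). They occur in 9.56%, 17.6%, 3.17% and 17.8% of all 32851 promoters of this length, and in 8.28%, 22.2%, 2.55% and 25.7% of the 13088 promoters of tested genes. The Cebpb promoter held TGACG 3 times and the NF-kappa B pattern 1 time, 23 bases before the start. The Foxa3 promoter held the NF-kappa B pattern 1 time, and the Foxa1 promoter held the FoxA pattern, that of its own family, 1 time. The Onecut1 promoter held 1 TGACG, the second listed Prox1 promoter held 1 NF-kappa B pattern, and the listed promoters of Cebpa and Foxa2 held none of the 4. The C/EBP pattern was found in none of these windows. A match is a description, not a site or a cause, and no match says only that the letters are not in the window. The 3 promoters below are shown 5′ to 3′ on the strand of the gene because 2 belong to factors that rose and 1 to a factor that fell, with the matches in capitals.
Cebpb (GRCm38.p6, chr2:167688665-167688914, plus strand): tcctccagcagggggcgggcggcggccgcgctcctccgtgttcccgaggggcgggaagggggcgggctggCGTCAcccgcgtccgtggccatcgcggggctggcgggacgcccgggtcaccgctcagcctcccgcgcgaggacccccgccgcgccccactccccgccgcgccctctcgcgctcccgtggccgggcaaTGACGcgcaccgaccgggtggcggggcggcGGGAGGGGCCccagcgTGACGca
Foxa3 (GRCm38.p6, chr7:19023540-19023789, minus strand): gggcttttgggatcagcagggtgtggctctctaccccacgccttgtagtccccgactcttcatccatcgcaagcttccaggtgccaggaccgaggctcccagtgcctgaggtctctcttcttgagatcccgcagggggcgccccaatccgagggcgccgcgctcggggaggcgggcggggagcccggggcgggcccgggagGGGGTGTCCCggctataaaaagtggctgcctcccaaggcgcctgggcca
Foxa1 (GRCm38.p6, chr12:57546112-57546361, minus strand): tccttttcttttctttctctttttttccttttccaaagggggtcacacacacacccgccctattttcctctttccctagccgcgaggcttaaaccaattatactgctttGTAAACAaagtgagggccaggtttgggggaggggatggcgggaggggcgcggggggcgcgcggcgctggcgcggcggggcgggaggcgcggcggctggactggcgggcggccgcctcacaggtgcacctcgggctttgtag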

How the data were processed

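Values are raw counts per gene as the authors deposited them, for 56691 genes in 7 libraries. The submitters' processing notes name cutadapt 1.9.1, HISAT2 2.2.1, HTSeq 0.6.1 and the build GRCm39. The annotation, the strand setting of the counting and its treatment of reads with several matches are not given in the sources used here. In edgeR 4.0.16 (R 4.3.3), filterByExpr kept 13683 genes, TMM gave the scaling factors, and the quasi-likelihood test had treatment as its single term, with p-values adjusted over these genes by the method of Benjamini and Hochberg. The SE was derived from the log2 fold change and the F statistic. Exon lengths and gene overlaps came from GENCODE M21 (GRCm38), another build than that of the counts, and promoters from RefSeq (GRCm38.p6). Scripts were tested on simulated data. The members and gene lists were chosen with earlier results of these data known. Named genes were the 8 factors, the C/EBP genes, Hnf4a, Hp and Saa1, the 3 highest and 3 lowest called genes with at least 1 CPM of each list and of the forkhead genes, and the 3 genes most like each factor. Some genes of this rule and 1 motif searched are not reported here. Other names were chosen after their values were seen. The analysis was repeated with DESeq2 1.42.0, with RLE factors, with total counts alone, without genes over 1% of the counts, with no filter, with at least 10 counts in every library, with the replicate number as a block, without each library in turn, and with LPS replicates 2 and 3 summed. A 2-fold rule was applied to the original fit only. Summing these with control replicate 3 left out was added after the data were seen, as were the counts of each list under the alternatives.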

Additional observations from a re-analysis of the deposited data

Results flagged for a closer look

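A control library stood far from the other 3 control mice, by its gap to the nearest one relative to the whole range, in 10 of 81 sets of control values compared; chance flags about 1 in 20 groups. For 8 of the 10 this was control replicate 3, but some of these genes were chosen after their values were seen. Over all genes tested, the library that stood apart was control replicate 1 for 1.64% of genes, control replicate 2 for 1.05%, control replicate 3 for 1.43% and control replicate 4 for 0.819%. In control replicate 3, Foxa1 was high with 48.21 CPM, and the log2 ratio of Foxa3 to Foxa1 was low with 0.2325. Cebpg (95.75 CPM), Crem (44.12 CPM), Hhex (327 CPM) and Foxq1 (55.54 CPM) were also high in that mouse. The summed lymphatic endothelial markers (43.81 CPM) and their most abundant gene in control mice, Reln (29.09 CPM), were low in it. Lyve1 was high in control replicate 4 with 7.742 CPM, and Il6, a gene with too few counts to be tested, in control replicate 2 with 0.4418 CPM. Onecut1 and Foxa2 were also highest in control replicate 3 but were not as far from the other control mice by this measure.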

How the results depend on the processing

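Over 16 alternative fits no factor changed direction, and Cebpb, Cebpd and Foxa3 had an adjusted p below 0.05 in each (edgeR or DESeq2). Scaling by total counts shifted the median log2 fold change of all genes by -0.12, gave 1350 genes higher and 2057 lower against 1825 and 1773, and kept all calls of the factors. When 1 library was left out, the log2 fold change ran from -0.59 to -0.48 for Cebpa (not called without LPS replicate 2 or 3), from -1.40 to -0.54 for Foxa1 and from -2.50 to -1.16 for Onecut1 (neither called without LPS replicate 1, 2 or 3), from 0.053 to 0.68 for Foxa2 (called only without control replicate 3), and from 0.28 to 0.64 for Prox1 (not called). Between 0 and 3 factors and between 1146 and 1868 genes were then called lower. Summing LPS replicates 2 and 3 gave -0.54 for Cebpa, -1.22 for Foxa1 and -2.20 for Onecut1, with 0 factors called lower. Leaving out control replicate 3 as well gave -0.55, -0.55 and -1.16, again with 0 (edgeR; 3 at an unadjusted p below 0.05). DESeq2 gave -1.20 for Foxa1, not called (adjusted p = 0.111). Prox1 was called with no filter (0.49). The 2-fold rule, applied to the original fit, left 1 factor (Cebpd) and 1068 genes higher and 1000 genes lower. With the replicate number as a block, Prox1 was called at 0.72 (edgeR adjusted p = 0.04995), and 1647 genes were higher and 1587 lower. The labels do not say whether the numbers pair the mice. Deviations of mice with the same number had correlations of 0.20, -0.060 and 0.080. Mice with different numbers had correlations from -0.15 to 0.11. Each value rests on 1 pair of mice, so these values cannot decide whether the mice were paired. Fits that left out or summed libraries also had fewer samples, and the cause of the changes in calls between fits was not tested. Depth limits Cebpd in control mice, with 15 to 49 counts per library, and Onecut1 after LPS, with 29 to 46.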
